A study of Mus musculus with 32 samples.

Results

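Untreated bone marrow-derived macrophages (BMDMs) were compared between day 1 and day 2 of a culture time course. The members were chosen by their labels: of 32 RNA-seq samples, 8 were untreated and harvested on day 1 or day 2, with 4 samples on each day. On each day, 2 samples came from Trex1 WT/FL BMDMs, with 1 loxP-flanked and 1 wild-type Trex1 allele, and 2 came from Trex1 FL/FL BMDMs, with both alleles loxP-flanked. Mice of both genotypes carried the inducible recombinase R26-CreERT2, which acts once 4-hydroxytamoxifen (4-OHT) is given, so the Trex1 alleles of the 8 untreated samples were by label not deleted. Marrow cells had been differentiated for 6 days in medium with 30% L929 supernatant, a source of the growth factor CSF1, and 250000 cells were seeded on 6-well plates. Days were counted from the end of the 22 h exposure of the treated wells to 4-OHT at 2 µg/ml. The other 24 samples were untreated cells of days 3 and 4 and 4-OHT-treated cells of days 1 to 4. The comparison asks what changed in control macrophages between the first pair of harvests, without a loss of Trex1. The labels give neither animals nor batches, so the spread between samples may be technical, p-values measure only that spread, and day cannot be told apart from harvest and library preparation.

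Macrophages sense foreign and misplaced nucleic acids and answer with type I interferon (IFN), which binds the receptor pair IFNAR1 and IFNAR2 and acts through the kinases JAK1 and TYK2. The kinases activate STAT2, which acts with IRF9 in a complex (ISGF3) that binds a DNA element of repeated GAAA letters, the IFN-stimulated response element (ISRE), before IFN-stimulated genes (ISGs). TREX1, the nuclease under study, degrades DNA in the cytosol and is itself the product of an ISG. BMDMs in CSF1-rich medium also divide, mature and handle large amounts of lipid, so lists of genes for these functions were followed together with the ISGs.

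Each library held between 37068763 and 54237100 estimated counts. The second FL/FL library of day 1 stood apart: 6.42% of 10842 well-counted genes lay over 0.5 log2 from the mean of the other 3 libraries of its day, 609 of the 696 below it, against 1.20 to 1.81% in the other 7 libraries. The deviation of that library ran against transcript GC content (Spearman rho -0.54 across genes, which are not independent replicates). For the other 3 libraries of day 1 rho was 0.14 to 0.45. The means they were set against include the library that stood apart, so these values are not a separate result. Without the library that stood apart, 492 genes were called higher and 378 lower, close to the counts with it. The cells had the label's identity on both days: all 12 macrophage markers were measured, with a summed level of 17520 to 19337 CPM on day 1 and 33624 to 37557 CPM on day 2. Neutrophil and granule markers summed to 37.5 to 48.4 CPM on day 1 and 17.9 to 23.2 CPM on day 2. No erythroid or mast cell marker passed the count filter, and of the T and NK cell markers only Trac did. Of 6 tested dendritic cell markers Fscn1 alone was called (lower), and of 2 fibroblast and 3 endothelial markers none was. Among B cell markers, Ms4a1, Cd79a, Pax5, Igkc and Jchain did not pass the filter. Cd79b, a chain of the B cell receptor complex, was at 2.02, 2.09, 2.25 and 1.89 CPM on day 1 and 4.58, 4.66, 3.72 and 4.44 CPM on day 2, higher at the adjusted p alone (1.05 ± 0.14 (SE), adjusted p = 3.06e-05). Ighm, the constant region of IgM, was at 31.9, 32.8, 33.6 and 33.1 CPM on day 1 and 180.1, 177, 179 and 165 CPM on day 2 (2.39 ± 0.05 (SE), adjusted p = 5.53e-12). CPM are counts per 1000000 counts of a library, after scaling between libraries; they are not corrected for gene length, so levels are compared within a gene. Values are given in the order WT/FL sample 1, WT/FL sample 2, FL/FL sample 1, FL/FL sample 2.

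Of 14099 genes tested, 483 (3.43%) were called higher on day 2 and 382 (2.71%) lower, where called means an adjusted p below 0.01 (edgeR quasi-likelihood test, Benjamini-Hochberg) and a fold change past 1.5 on the log2 scale in that direction. At the adjusted p alone, 3157 genes (22.4%) were higher and 3554 (25.2%) lower, and the median log2 fold change of all genes was -0.02. Of the 865 called genes, 857 did not overlap between days, as did 7856 of all 14099. Counts for the gene lists below are read against these shares; "rose" and "fell" mean a call unless the adjusted p alone is named.

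**Figure D1:**
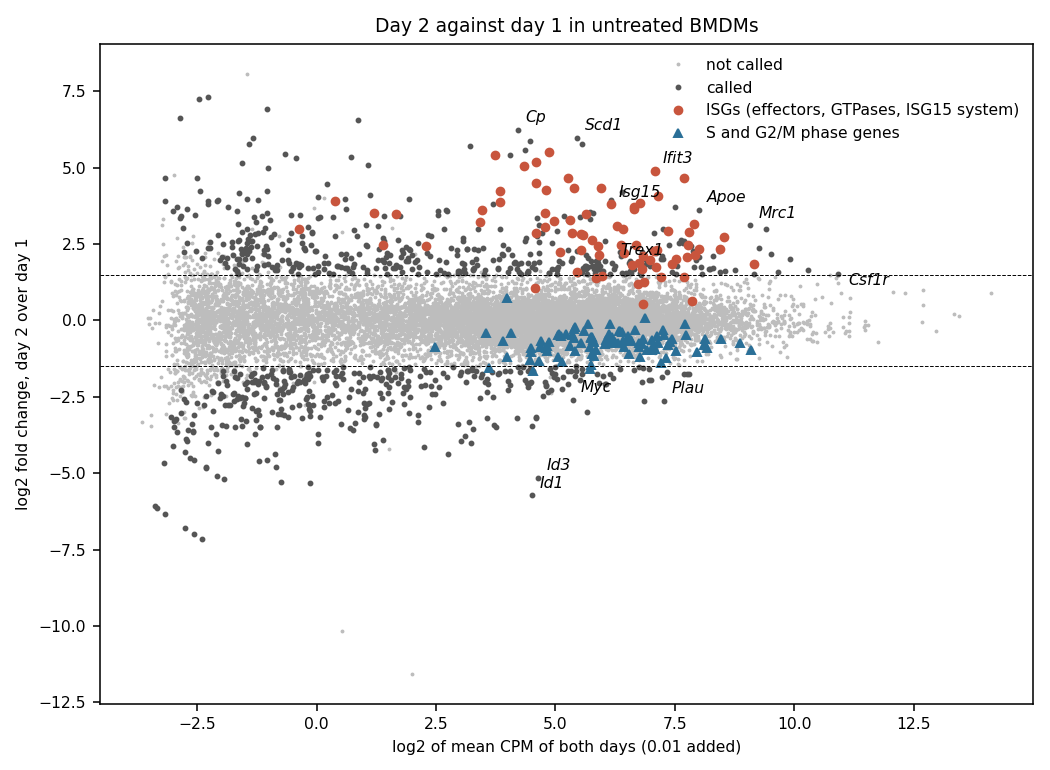
Log2 fold change of each of 14099 genes (day 2 over day 1, y axis) against the log2 of its mean CPM over both days (x axis); dark points are called genes (483 higher, 382 lower), orange circles are ISGs, blue triangles are S and G2/M phase genes, and dashed lines mark 1.5 and -1.5. Cp, at a log2 fold change of 6.23, lies highest among the named rises and Id1, at -5.73, lowest among the named falls.

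Trex1 itself rose. The gene (ENSMUSG00000049734.9; chromosome 9, 108887001 to 108888802 on the minus strand of GRCm39) was at 32.0, 28.6, 31.6 and 31.6 CPM on day 1 and 124, 114, 120.2 and 102 CPM on day 2. Every day 2 value lay above every day 1 value, in WT/FL and FL/FL cells alike (1.87 ± 0.07 (SE), adjusted p = 1.90e-10). The mouse Trex1 transcripts lie within the locus of Atrip, a partner of the checkpoint kinase ATR: 100% of the 31-base words of Trex1 transcripts also occur in transcripts annotated to other genes, so reads of the pair may have been divided between them. Atrip as a whole was at 14.9, 14.0, 14.3 and 14.3 CPM on day 1 and 15.3, 14.2, 15.0 and 14.9 CPM on day 2, groups that overlapped (0.02 ± 0.07 (SE), adjusted p = 0.808).

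The interferon ligands were near the limit of detection on both days. Ifnb1, the first type I IFN made by most cells, was at 0.0463, 0, 0.0166 and 0 CPM on day 1 and 0, 0.0709, 0.022 and 0.0417 CPM on day 2, and Ifna4 was at 0 in all 8 libraries. A count of 0 in the shallowest library allows up to 0.0809 CPM, so a level up to that value cannot be told from 0 there, and none of the 4 ligands listed passed the filter. Receptor transcripts changed little. Ifnar1 was at 225, 216, 210.0 and 220.3 CPM on day 1 and 262, 272, 254 and 265 CPM on day 2, a shift of 0.25 ± 0.04 (SE) on the log2 scale that did not overlap between days (adjusted p = 0.000137). Ifnar2 was at 74.5, 78.3, 74.9 and 74.6 CPM on day 1 and 120.4, 117, 111 and 112 CPM on day 2 (0.59 ± 0.04 (SE), adjusted p = 9.82e-08).

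Among signal carriers, the ISGF3 subunits Stat2 and Irf9 were both higher on day 2. Stat2 was at 53.9, 51.2, 54.1 and 57.5 CPM on day 1 and 376, 317, 351 and 321 CPM on day 2 (2.63 ± 0.06 (SE), adjusted p = 1.25e-11). Irf9 was at 43.3, 44.1, 43 and 48.1 CPM on day 1 and 96.3, 92.8, 93.2 and 93.0 CPM on day 2, higher in all 4 samples of day 2 but below the fold threshold (1.05 ± 0.05 (SE), adjusted p = 1.64e-09). Irf7, the IFN-inducible factor that amplifies ligand transcription, was at 29.4, 25.4, 28.4 and 18.6 CPM on day 1 and 404, 309, 361 and 269 CPM on day 2. Its lowest day 1 value belonged to the FL/FL library that stood apart, and the days did not overlap (3.70 ± 0.20 (SE), adjusted p = 1.35e-05). Irf3, the constitutive factor next to it, was at 31.7, 33.1, 32.8 and 22.9 CPM on day 1 and 37.1, 37.5, 37.6 and 36.9 CPM on day 2; its low value came from the same library, and it did not pass (0.29 ± 0.10 (SE), adjusted p = 0.0377). Of 20 tested members of the list of IFN ligands, receptors and signalling, 4 rose (Irf7, Stat2 and Irf1 among them), 0 fell and 16 were higher at the adjusted p alone, with a median of 0.62. Socs3, an inhibitor of cytokine receptors, was lower without passing (log2 fold change -0.69 ± 0.18 (SE)), and Socs1, an inhibitor of JAK kinases, was higher below the fold threshold (1.46 ± 0.18 (SE), adjusted p = 1.72e-05).

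Most ISGs that act against viruses rose. Of 55 listed antiviral effectors 54 were tested (Ifi44l was not), 45 rose, 0 fell, and all 54 were higher at the adjusted p alone; their median log2 fold change was 2.47, against -0.02 over all genes. Isg15, a ubiquitin-like modifier, was at 10.7, 9.36, 11.6 and 6.08 CPM on day 1 and 146, 124, 145 and 117 CPM on day 2. The fourth day 1 value, from the library that stood apart, was the lowest, and all 4 values of day 2 were higher than any of day 1 (3.80 ± 0.23 (SE), adjusted p = 2.33e-05). Ifit3, which helps to hold foreign RNA away from translation, was at 9.48, 9.65, 7.62 and 8.28 CPM on day 1 and 300.1, 252, 259 and 235 CPM on day 2 (4.88 ± 0.07 (SE), adjusted p = 8.38e-13). Rsad2, the antiviral enzyme viperin, was at 20.4, 14.1, 12.9 and 15.9 CPM on day 1 and 294, 271, 262 and 241 CPM on day 2 (4.06 ± 0.12 (SE), adjusted p = 4.37e-08). Mx1, a dynamin-like GTPase that traps viral nucleocapsids, was at 4.89, 3.67, 3.65 and 3.6 CPM on day 1 and 90.0, 74.4, 78.9 and 76.4 CPM on day 2 (4.32 ± 0.09 (SE), adjusted p = 1.66e-11). The 4 genes did not overlap between days. Daxx, Tor3a, Samd9l, Ifi35, Eif2ak2, Apobec3, Nmi, Trim25 and Slfn9 were the 9 tested effectors that did not reach the fold threshold, with log2 fold changes of 0.52 to 1.46. Of 6 members of the ISG15 conjugation system 5 rose, from Ube2l6, its E2 enzyme (1.88 ± 0.05 (SE)), to Isg15, with Usp18, the protease that removes ISG15 and dampens IFNAR signalling, at 12.8, 11.9, 12.0 and 11.2 CPM on day 1 and 90.9, 83.2, 84.2 and 78.2 CPM on day 2 (2.79 ± 0.06 (SE), adjusted p = 5.53e-12). Trim25, an E3 ligase, was below the fold threshold (0.63 ± 0.06 (SE), adjusted p = 7.70e-07).

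The IFN-inducible GTPases, which attack the vacuoles of intracellular pathogens, rose in 16 of 16 tested members of a list of 17 (Gbp2b was not tested), with a median of 3.16. Iigp1 was at 1.74, 1.14, 1.03 and 1.08 CPM on day 1 and 66.3, 56.1, 59.6 and 47.3 CPM on day 2; the day 1 values spread from 1.03 to 1.74 CPM and stayed below every value of day 2 (5.51 ± 0.14 (SE), adjusted p = 3.60e-10). Gbp2, a guanylate-binding protein, was at 8.9, 7.34, 7.34 and 8.63 CPM on day 1 and 99.5, 90.6, 96.1 and 78.8 CPM on day 2 (3.48 ± 0.09 (SE), adjusted p = 7.62e-11). The smallest change in the list was that of Irgm1 (2.28 ± 0.06 (SE)). Tgtp2 (4.67 ± 0.08 (SE)) shares 90.5% of its 31-base words with other genes, chiefly Tgtp1, so how reads were divided between the pair is uncertain.

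The promoters of these genes can be read for the ISRE. The RefSeq promoter table (GRCm38.p6, 250 bases before to 50 after each start) was searched on both strands for the core of the element, which is GAAA followed by any 2 bases and then by GAAA again; matches could overlap each other. The letters occurred in 3.99% of all 27025 genes' promoters and in 3.99% of the 10163 tested genes with a promoter in the table. They occurred in 77 of the 335 genes called higher with a promoter (23%) and in 9 of the 281 called lower (3.2%). They were found before 23 of 44 antiviral effectors (52.3%) and 9 of 10 GTPases (90%). The following 4 promoters of genes that rose, shown because each holds the letters at a different place or number, are printed 5′ to 3′ in the direction of the gene, with matches on either strand in capitals.
Isg15: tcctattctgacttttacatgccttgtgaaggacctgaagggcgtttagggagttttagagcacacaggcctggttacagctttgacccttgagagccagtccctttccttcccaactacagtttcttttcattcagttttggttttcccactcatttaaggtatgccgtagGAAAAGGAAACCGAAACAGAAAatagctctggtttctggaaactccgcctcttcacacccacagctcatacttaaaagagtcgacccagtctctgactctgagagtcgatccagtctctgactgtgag
Ifit3: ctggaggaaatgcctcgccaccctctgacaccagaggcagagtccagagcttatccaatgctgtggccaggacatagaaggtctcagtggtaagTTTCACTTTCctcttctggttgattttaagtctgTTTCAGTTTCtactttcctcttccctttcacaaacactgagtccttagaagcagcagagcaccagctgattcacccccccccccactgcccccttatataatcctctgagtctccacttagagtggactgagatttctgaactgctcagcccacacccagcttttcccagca
Ifi213: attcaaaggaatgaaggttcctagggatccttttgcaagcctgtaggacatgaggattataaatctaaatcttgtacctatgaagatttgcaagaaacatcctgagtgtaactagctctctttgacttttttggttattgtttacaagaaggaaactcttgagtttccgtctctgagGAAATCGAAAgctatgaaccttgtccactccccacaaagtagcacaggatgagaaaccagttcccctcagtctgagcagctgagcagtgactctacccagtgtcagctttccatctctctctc
Stat2: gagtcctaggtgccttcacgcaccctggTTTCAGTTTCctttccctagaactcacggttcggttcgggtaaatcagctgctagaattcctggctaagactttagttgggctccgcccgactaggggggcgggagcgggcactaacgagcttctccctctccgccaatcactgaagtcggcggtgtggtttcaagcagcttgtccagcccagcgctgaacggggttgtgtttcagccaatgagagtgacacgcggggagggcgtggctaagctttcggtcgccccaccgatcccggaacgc
The Isg15 window (chr4:156200769-156201068, minus strand) held 3 overlapping matches, beginning at -78, -72 and -66 from the start. The Ifit3 window (chr19:34583279-34583578, plus strand) held 2 on the opposite strand, at -156 and -122, so that the capitals read TTTC. Ifi213 (chr1:173599223-173599522, minus strand) held 1 match at -73 and Stat2 (chr10:128270248-128270547, plus strand) 1 at -222 on the opposite strand. Irf7, Ifi44, Ms4a4c, Cp and both Trex1 windows held none, which says only that these letters are not in those windows. Ifit3 shares 39.4% of its words with other genes, chiefly Ifit3b, and Isg15 33.4%.

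**Figure D2:**
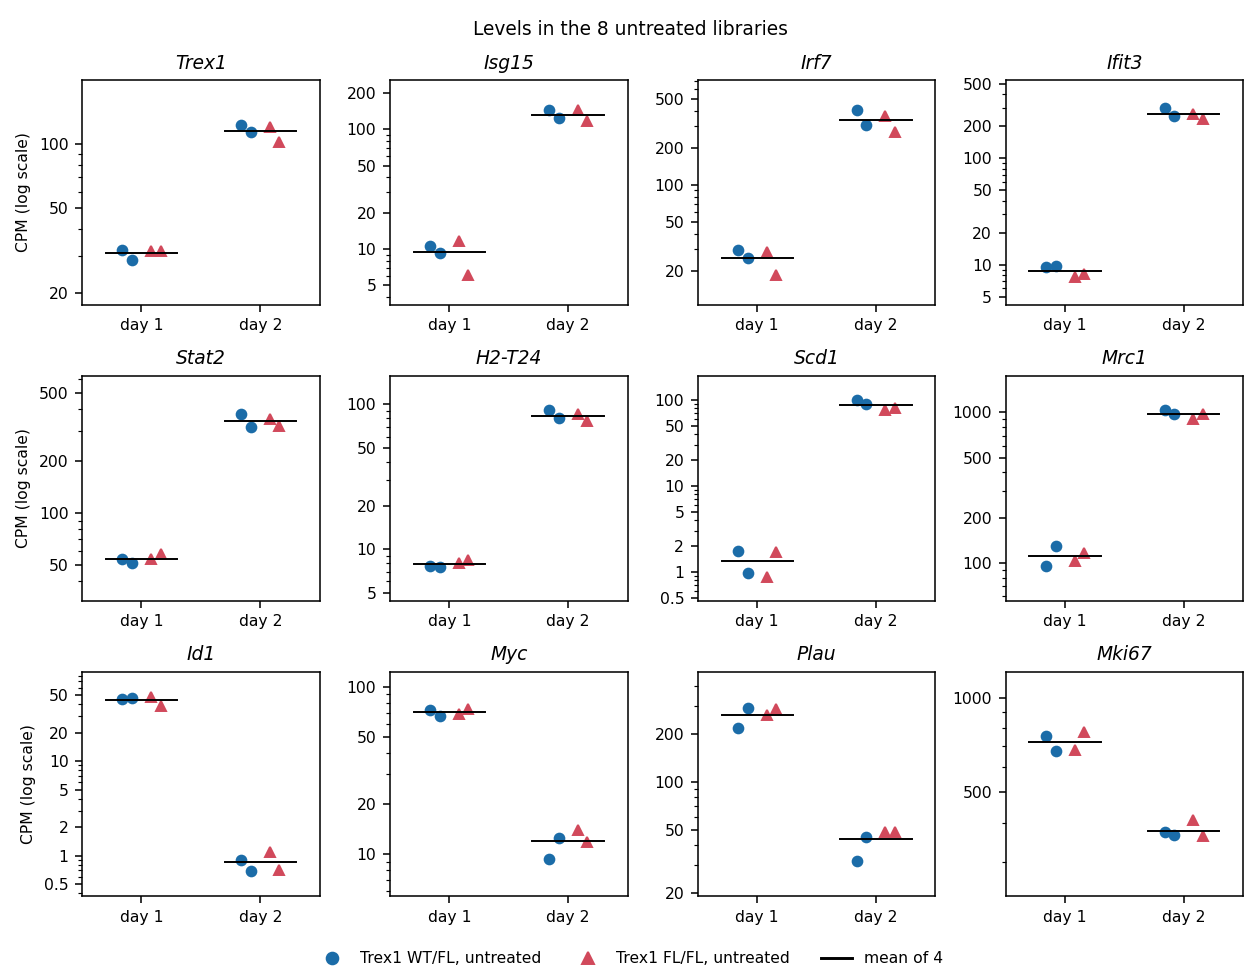
CPM (y axis, log scale) of selected genes in the 8 untreated libraries by day, with blue circles for WT/FL and red triangles for FL/FL libraries and a black line for the mean of 4. Trex1 goes from 28.6 to 32.0 CPM on day 1 to 102 to 124 CPM on day 2, and the days do not overlap in any of the 12 genes plotted.

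Antigen presentation through MHC class I, whose heavy chains show peptides to CD8 T cells, was also higher. Of 20 tested members 9 rose, 0 fell and 20 were higher at the adjusted p alone, with a median of 1.45. H2-K1, a classical heavy chain, was at 659, 662, 639 and 446 CPM on day 1 and 2055, 1921, 1807 and 1838 CPM on day 2; the lowest value again came from the library that stood apart, and the days did not overlap (1.65 ± 0.11 (SE), adjusted p = 1.05e-05). H2-T24, a non-classical heavy chain, was at 7.6, 7.51, 8.04 and 8.42 CPM on day 1 and 92.2, 81.0, 85.2 and 76.7 CPM on day 2 (3.38 ± 0.07 (SE), adjusted p = 5.53e-12). B2m, the invariant light chain, was at 843, 824, 851 and 925 CPM on day 1 and 2177, 2011, 1914 and 1855 CPM on day 2, higher in all 4 samples of day 2 and below the fold threshold (1.19 ± 0.05 (SE), adjusted p = 1.79e-09). Tap1, a subunit of the peptide transporter, rose from 60.3 ± 3.59 to 205 ± 20.2 CPM (mean ± SD, n = 4; 1.74 ± 0.07 (SE), adjusted p = 1.10e-09). H2-T23 shares 29.3% of its words with related genes. The letters of the ISRE core were found before 5 of 17 class I genes (29.4%). MHC class II genes, which show peptides to CD4 T cells, did not move as a group: of 10 tested, 0 rose or fell, 3 were higher and 1 lower at the adjusted p alone, and the median was -0.02. H2-Aa, a class II alpha chain, was at 12.0, 7.66, 9.38 and 5.83 CPM on day 1 and 7.87, 9.08, 8.92 and 7.18 CPM on day 2, groups that overlapped (-0.09 ± 0.20 (SE), adjusted p = 0.719).

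Some sensors of nucleic acids rose. Of 24 tested members 6 rose, 0 fell, 19 were higher and 2 lower at the adjusted p alone, with a median of 0.99. All 3 RNA helicase sensors were among those that rose. Rigi, the sensor of uncapped RNA, was at 51.1, 49.3, 50.6 and 51.8 CPM on day 1 and 309.6, 283, 287 and 249 CPM on day 2 (2.45 ± 0.06 (SE), adjusted p = 1.47e-11). Dhx58 (2.25 ± 0.07 (SE), adjusted p = 4.45e-11) and Ifih1 (2.10 ± 0.05 (SE), adjusted p = 1.23e-11), its relatives, rose from 27.9 ± 2.24 to 135 ± 7.17 CPM and from 30.6 ± 0.567 to 134 ± 9.3 CPM (mean ± SD, n = 4). Tlr9 and Tlr8, endosomal receptors for DNA and RNA, were the others beside Trex1; Tlr9 was at 11.0, 9.85, 10.4 and 8.4 CPM on day 1 and 41.4, 33.5, 42.3 and 31.3 CPM on day 2 (1.88 ± 0.12 (SE), adjusted p = 5.57e-07). The cytosolic DNA pathway that TREX1 restrains moved less. Cgas, the DNA sensor, was at 32.2, 32.8, 32.1 and 29.5 CPM on day 1 and 23.4, 24.1, 28.3 and 23.8 CPM on day 2, lower in all 4 samples of day 2 and not past the fold threshold (-0.37 ± 0.07 (SE), adjusted p = 0.000935); it shares 35.9% of its words with transcripts of other genes, mostly on the opposite strand. Sting1, the adaptor that binds the product of cGAS, was at 29.1, 28.6, 26.7 and 32.1 CPM on day 1 and 55.8, 52.6, 50.1 and 48.8 CPM on day 2 (0.81 ± 0.06 (SE), adjusted p = 2.44e-07). Rnaseh2b, a subunit of the enzyme that cuts RNA in RNA-DNA hybrids, was lower at the adjusted p alone (-0.47 ± 0.06 (SE), adjusted p = 2.26e-05). Samhd1, which lowers dNTP pools, was higher below the fold threshold (1.24 ± 0.06 (SE), adjusted p = 2.81e-09). Without the library that stood apart, 7 members of the list were called.

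Some genes of lipid handling rose on day 2. A list joined liver X receptor (LXR) targets with other lipid genes such as Cd36, Fabp4, Lpl and Plin2. Of its 17 tested members 7 were called higher and 0 lower, with a median of 1.11. Scd1, the desaturase that makes monounsaturated fatty acids, was at 1.76, 0.973, 0.878 and 1.69 CPM on day 1 and 98.8, 88.7, 76.4 and 79.3 CPM on day 2. It had the largest rise in the list and the day 1 values were all below 2 CPM (5.98 ± 0.19 (SE), adjusted p = 1.55e-07). Abca1, the exporter that loads cholesterol onto apolipoprotein A-I, was at 132, 112, 106 and 117 CPM on day 1 and 567, 572, 573 and 555 CPM on day 2 (2.26 ± 0.06 (SE), adjusted p = 2.23e-11). Apoe, a carrier of exported cholesterol, was at 22.0, 56.6, 46.4 and 26.7 CPM on day 1 and 429, 525, 435 and 504 CPM on day 2; the day 1 values spread more than those of day 2 and stayed below them (3.62 ± 0.38 (SE), adjusted p = 0.000512). Srebf1, an LXR target and regulator of fatty acid synthesis, was higher below the fold threshold (0.66 ± 0.05 (SE), adjusted p = 3.41e-07), and Nr1h3, which encodes LXR alpha, did not pass (0.10 ± 0.08 (SE), adjusted p = 0.303).

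The enzymes that make cholesterol, which sterol excess shuts down, were higher at the same time. Of 23 tested members 2 rose and 0 fell, while 21 were higher at the adjusted p alone and the median was 0.87. Mvd, which makes isopentenyl diphosphate, was at 24.9, 23.0, 22.7 and 16.2 CPM on day 1 and 76.8, 76.0, 73.9 and 76.9 CPM on day 2; the low day 1 value came from the library that stood apart (1.79 ± 0.11 (SE), adjusted p = 9.60e-07). Lss, which closes the sterol ring system, rose from 30.5 ± 2.02 to 95.4 ± 2.88 CPM (mean ± SD, n = 4; 1.63 ± 0.05 (SE), adjusted p = 1.24e-10). The letters CCAAT, bound by the factor NF-Y, were found on either strand of the window in 16 of 16 promoters of the list (100%). They occurred in 41.1% of all promoters, 43.3% of those of tested genes and 42.7% of those of genes called higher. Lists that did not rise also held them often: 7 of 7 class II promoters, 84.2% for the unfolded protein response and 76.6% for G2/M genes. The Mvd promoter (chr8:122443373-122443672, minus strand) is shown with its 2 matches, at -60 and -27, in capitals; the reverse complement of the letters reads ATTGG.
Mvd: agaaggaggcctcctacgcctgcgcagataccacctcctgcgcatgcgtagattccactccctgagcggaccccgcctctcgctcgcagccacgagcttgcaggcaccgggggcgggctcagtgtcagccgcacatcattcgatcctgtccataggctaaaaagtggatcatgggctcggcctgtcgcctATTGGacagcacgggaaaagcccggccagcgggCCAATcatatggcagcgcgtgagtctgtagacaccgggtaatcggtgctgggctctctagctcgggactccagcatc

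Genes of cell division were lower on day 2 by small steps. Of 43 tested S phase genes 3 fell and 42 were lower at the adjusted p alone, with a median of -0.92. Of 54 tested G2/M genes 0 fell and 49 were lower at the adjusted p alone, with a median of -0.62, and Psrc1 was the 1 that was higher (0.72 ± 0.10 (SE), adjusted p = 2.86e-05). Mki67, a nuclear protein of cycling cells, was at 756, 676, 682 and 775 CPM on day 1 and 373, 364, 408 and 363 CPM on day 2. The days did not overlap and the step stayed within the fold threshold (-0.96 ± 0.06 (SE), adjusted p = 1.50e-08). Mcm6, a subunit of the replicative helicase, was at 329, 321, 338 and 346 CPM on day 1 and 165, 149.6, 180.3 and 162 CPM on day 2 (-1.05 ± 0.05 (SE), adjusted p = 2.81e-09). Ccnd1, the cyclin that carries CSF1 signals into G1, was at 617, 658, 605 and 593 CPM on day 1 and 234, 251, 298 and 274 CPM on day 2 (-1.25 ± 0.07 (SE), adjusted p = 8.85e-08). In the list of cyclins, CDKs and CDK inhibitors, 1 of 32 tested members fell (Ccne2) and 20 were lower at the adjusted p alone, with a median of -0.51. Cdkn1b, the inhibitor p27, was higher at the adjusted p alone (0.77 ± 0.05 (SE), adjusted p = 3.57e-08). Cdca7, Ung and Ccne2 were the 3 S phase genes that fell, Cdca7 being at 36.5, 34.9, 31.1 and 37.0 CPM on day 1 and 10.9, 10.4, 12.0 and 12.0 CPM on day 2 (-1.64 ± 0.08 (SE), adjusted p = 2.34e-09), and Ccne2 stayed close to the threshold (-1.60 ± 0.07 (SE), adjusted p = 1.08e-09). The E2F core, which has the form TTTGGCG in most descriptions of the motif and was also searched for here as TTTCCCG and in its remaining common spelling as TTTGCCG, was found on either strand in 13 of 31 promoters of S phase genes (41.9%), against 6.83% of all promoters and 10.9% of those of tested genes. The CHR letters TTTGAA were found before 33 of 47 G2/M genes (70.2%), against 20.2% of all promoters and 14.9% of those of tested genes. The Cdca7 promoter (chr2:72475969-72476268, plus strand) carries its match at -70 on the opposite strand, in capitals.
Cdca7: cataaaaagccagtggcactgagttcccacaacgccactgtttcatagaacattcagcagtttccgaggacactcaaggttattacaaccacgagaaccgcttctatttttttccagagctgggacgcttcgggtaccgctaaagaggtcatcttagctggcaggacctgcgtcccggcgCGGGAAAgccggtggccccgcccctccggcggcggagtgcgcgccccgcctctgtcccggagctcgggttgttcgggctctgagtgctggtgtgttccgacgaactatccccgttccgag

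Myc, the growth-promoting transcription factor, was at 72.8, 66.8, 68.5 and 73.7 CPM on day 1 and 9.28, 12.4, 14.0 and 11.8 CPM on day 2. All 4 samples of day 2 were lower than any of day 1 (-2.60 ± 0.10 (SE), adjusted p = 7.88e-09). Myc belonged to the immediate early list, genes that respond to growth factors within minutes to hours, in which 7 of 30 tested members fell, 1 rose and 18 were lower at the adjusted p alone, with a median of -0.74. Fosl2, an AP-1 subunit, fell from 123 ± 16.1 to 41.0 ± 2.89 CPM (mean ± SD, n = 4; -1.60 ± 0.10 (SE), adjusted p = 1.14e-06). Fosb, another subunit, was at 1.23, 0.413, 3.53 and 2.38 CPM on day 1 and 0.0377, 0.0236, 0.264 and 0.167 CPM on day 2 (-4.02 ± 0.43 (SE), adjusted p = 4.07e-06). Dusp4, a phosphatase that turns off MAP kinases, fell from 60.5 ± 8.61 to 19.4 ± 3.72 CPM (-1.67 ± 0.18 (SE), adjusted p = 0.000283). Fosl1 (-3.91 ± 0.35 (SE), adjusted p = 4.50e-06) shares 65.1% of its words with genes on the opposite strand. Btg2, an antiproliferative gene that is also a p53 target, was the member that rose, from 10.5 ± 0.838 to 32.5 ± 1.29 CPM (1.61 ± 0.07 (SE), adjusted p = 1.10e-09). Fos itself was lower below the fold threshold (-1.20 ± 0.07 (SE), adjusted p = 1.82e-08), and Jun did not pass (-0.16 ± 0.09 (SE), adjusted p = 0.195). Without the library that stood apart, 6 members were called lower.

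Macrophage markers were higher on day 2. Of 12 tested macrophage markers 3 rose, 0 fell and 12 were higher at the adjusted p alone, with a median of 0.90. Mrc1, the mannose receptor CD206, was at 95.1, 129, 102 and 117 CPM on day 1 and 1028, 967, 907 and 977 CPM on day 2; the days lay far apart (3.11 ± 0.10 (SE), adjusted p = 2.26e-08). Fcgr1, the high-affinity IgG receptor and also an ISG, rose from 55.4 ± 6.03 to 243 ± 15.7 CPM (mean ± SD, n = 4; 2.11 ± 0.08 (SE), adjusted p = 1.64e-09). Adgre1, which encodes F4/80, was at 1034, 974, 952 and 991 CPM on day 1 and 3090, 2890, 2684 and 2726 CPM on day 2, with a log2 fold change just past the threshold (1.503 ± 0.042 (SE), adjusted p = 3.10e-11). Csf1r, the receptor for CSF1, was at 1418, 1367, 1417 and 1313 CPM on day 1 and 2798, 2643, 2549 and 2516 CPM on day 2 (0.91 ± 0.04 (SE), adjusted p = 2.34e-09). Of 37 tested lysosomal genes 0 rose and 29 were higher at the adjusted p alone, with a median of 0.43. Ctsd, a lysosomal protease, went from 3512 ± 106 to 6678 ± 260.0 CPM (0.90 ± 0.04 (SE), adjusted p = 1.16e-09). The CLEAR letters GTCACGTG, read by TFEB, were found before 8 of 28 lysosomal genes (28.6%). They occurred in 2.55% of all promoters, 4.76% of those of tested genes and 1.19% of those of genes called higher.

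Osteoclast genes, which mark the other fate that CSF1-grown precursors can take, were lower on day 2. Of 8 tested 6 fell and 8 were lower at the adjusted p alone, with a median of -1.78 and a summed level of 649 to 895 CPM on day 1 and 222 to 299 CPM on day 2. Dcstamp, needed for the fusion of precursors, was at 28.9, 29.3, 38.4 and 35.6 CPM on day 1 and 2.98, 3.81, 4.6 and 3.3 CPM on day 2 (-3.19 ± 0.11 (SE), adjusted p = 2.14e-10). Ocstamp, its partner in fusion, was at 16.5, 13.1, 20.2 and 14.7 CPM on day 1 and 0.962, 1.21, 1.59 and 1.00 CPM on day 2 (-3.79 ± 0.17 (SE), adjusted p = 8.37e-09). Ctsk, the collagen-cutting protease of resorbing cells, was at 198, 212, 292 and 236 CPM on day 1 and 56.3, 66.5, 82.3 and 54.7 CPM on day 2 (-1.87 ± 0.16 (SE), adjusted p = 8.15e-05). The 3 genes did not overlap between days. Cd34, a marker of progenitors, was at 17.0, 14.0, 19.1 and 16.2 CPM on day 1 and 1.45, 1.39, 2.47 and 1.48 CPM on day 2 (-3.32 ± 0.16 (SE), adjusted p = 6.35e-09), while Ccr2, the receptor of inflammatory monocytes, was at 104, 78.7, 86.5 and 86.0 CPM on day 1 and 151, 95.6, 108 and 111 CPM on day 2, groups that overlapped (0.37 ± 0.16 (SE), adjusted p = 0.0907). Of 8 tested monocyte and progenitor markers 0 rose and 3 fell, with a summed level of 138 to 153 CPM on day 1 and 155 to 200 CPM on day 2. In bulk RNA, fewer cells of a type and less RNA per cell cannot be told apart.

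Growth factor and alternative activation genes were mixed. In the list of the CSF1 receptor axis and lineage factors, 3 of 24 tested members rose and 4 fell, with a median of 0.22. Csf3r, the G-CSF receptor, was at 5.95, 5.74, 5.32 and 5.85 CPM on day 1 and 39.2, 37.6, 28.9 and 35.3 CPM on day 2 (2.59 ± 0.08 (SE), adjusted p = 7.86e-11). Bhlhe40, a transcriptional repressor, fell from 61.7 ± 3.09 to 14.9 ± 1.78 CPM (mean ± SD, n = 4; -2.07 ± 0.06 (SE), adjusted p = 3.23e-11), and Maf, which maintains macrophage identity, was higher below the fold threshold (1.36 ± 0.05 (SE), adjusted p = 4.06e-10). Of 17 alternative activation genes 4 rose and 2 fell, with a median of 0.85. Clec10a, a lectin, rose from 4.51 ± 0.727 to 25.3 ± 1.01 CPM (2.48 ± 0.09 (SE), adjusted p = 2.41e-10). Arg1, the arginase of alternatively activated macrophages, was at 1.81, 1.31, 1.77 and 2.15 CPM on day 1 and 0.0943, 0.0473, 0 and 0.0209 CPM on day 2, near the limit of detection on the later day. Pdcd1lg2, another member called, was below 0.5 CPM in all 8 libraries.

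Complement genes were higher on day 2. Of 13 tested 5 rose, 0 fell and 12 were higher at the adjusted p alone, with a median of 1.43. C3, the central component, was at 141, 118, 125 and 101 CPM on day 1 and 438, 429.9, 422 and 352 CPM on day 2 (1.74 ± 0.09 (SE), adjusted p = 3.78e-07). C1qa, a subunit of C1q, was at 114, 202, 143 and 94.9 CPM on day 1 and 292, 381, 316 and 394 CPM on day 2; the day 1 values spread widely and all lay below those of day 2, a step within the fold threshold (1.31 ± 0.28 (SE), adjusted p = 0.00933). Cd55, which protects the cell's own surface, rose from 8.29 ± 0.81 to 30.7 ± 1.56 CPM (mean ± SD, n = 4; 1.87 ± 0.07 (SE), adjusted p = 5.62e-10). Cfb and C4b, also called, share 73.1% and 45.5% of their words with neighbours or copies, and without the library that stood apart 4 members were called of 14 tested.

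Inflammatory genes did not rise as a list. The list inducible by NF-kappaB and TNF had a median of -0.0007 over 35 tested members, of which 1 rose (Csf1) and 5 fell. At the adjusted p alone 13 were higher and 10 lower. Tnf, the cytokine itself, was at 74.2, 84.8, 75.8 and 75.3 CPM on day 1 and 21.3, 26.8, 28.0 and 30.2 CPM on day 2; every value of day 2 lay below those of day 1 (-1.57 ± 0.10 (SE), adjusted p = 7.42e-07). Plaur, the urokinase receptor, was at 103, 110.4, 103 and 109 CPM on day 1 and 25.0, 24.2, 26.5 and 26.4 CPM on day 2 (-2.08 ± 0.05 (SE), adjusted p = 1.38e-11). Nfkbia, the inhibitor and early target of NF-kappaB, was lower at the adjusted p alone (-0.32 ± 0.06 (SE), adjusted p = 0.000451), and Tnfaip3, another feedback inhibitor, did not pass (-0.17 ± 0.06 (SE), adjusted p = 0.0323). Tnfaip2 (1.16 ± 0.09 (SE), adjusted p = 4.27e-06) was higher below the fold threshold.

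Chemokines moved in both directions, with 4 of 20 tested members called higher and 5 lower (median 0.40). Cxcl10, an IFN-inducible attractant of T cells, was at 21.9, 18.7, 16.1 and 17.7 CPM on day 1 and 113, 123, 115 and 103 CPM on day 2 (2.59 ± 0.07 (SE), adjusted p = 2.37e-11). Cxcl9 and Ccl8, both also IFN-inducible, were called higher from very low levels: Cxcl9 was at 0, 0, 0.0332 and 0 CPM on day 1 and 0.623, 0.78, 0.705 and 0.939 CPM on day 2 and Ccl8 at 0.0232, 0, 0 and 0.105 CPM on day 1 and 1.62, 1.16, 1.26 and 1.65 CPM on day 2, so no fold is given for them. Ccl2, the attractant of monocytes, was at 174, 223, 178 and 213 CPM on day 1 and 43.9, 52.0, 58.2 and 56.1 CPM on day 2, lower in all 4 samples of day 2 (-1.93 ± 0.12 (SE), adjusted p = 3.06e-06). Ccl7, which shares receptors with it, fell from 99.1 ± 15.2 to 28.8 ± 3.16 CPM (mean ± SD, n = 4; -1.81 ± 0.13 (SE), adjusted p = 1.41e-05). Among 12 tested receptors 1 rose and 2 fell. Cx3cr1, the fractalkine receptor, was at 342, 351, 304 and 335 CPM on day 1 and 105, 89.1, 96.99 and 111 CPM on day 2 (-1.75 ± 0.07 (SE), adjusted p = 5.40e-09). Ccrl2 (2.20 ± 0.19 (SE), adjusted p = 6.25e-07) was the receptor that rose and Ccr1 (-1.60 ± 0.08 (SE), adjusted p = 8.74e-09) the other that fell, the latter close to the threshold.

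Genes of adhesion and of the surrounding matrix were lower more often than higher: 1 of 28 tested members rose and 4 fell, 7 were higher and 13 lower at the adjusted p alone, and the median was -0.55. Plau, urokinase itself, was at 219, 293, 262 and 287 CPM on day 1 and 31.9, 45.2, 48.4 and 48.7 CPM on day 2, lower in every sample of day 2 (-2.64 ± 0.15 (SE), adjusted p = 9.32e-06). Mmp12, the macrophage elastase, fell from 150.0 ± 8.44 to 49.7 ± 7.24 CPM (mean ± SD, n = 4; -1.61 ± 0.10 (SE), adjusted p = 2.19e-06). Fn1, fibronectin, fell from 4.19 ± 0.355 to 0.842 ± 0.299 CPM (-2.36 ± 0.23 (SE), adjusted p = 1.54e-06). Itgam, the CD11b integrin chain, was higher below the fold threshold (0.52 ± 0.04 (SE), adjusted p = 2.10e-07).

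Metabolic and stress lists moved by less. Of 29 glycolysis and hypoxia genes 2 fell and 19 were lower at the adjusted p alone, with a median of -0.43. Slc2a1, the glucose transporter GLUT1, was at 164, 164, 170.0 and 174 CPM on day 1 and 54.6, 58.5, 62.0 and 57.7 CPM on day 2 (-1.55 ± 0.05 (SE), adjusted p = 4.32e-11). Egln3, an oxygen sensor induced by hypoxia, fell from 17.0 ± 0.519 to 4.77 ± 0.684 CPM (mean ± SD, n = 4; -1.86 ± 0.10 (SE), adjusted p = 6.87e-09), while Ldha, which turns pyruvate to lactate, was lower below the fold threshold (-0.81 ± 0.04 (SE), adjusted p = 2.02e-09). Of 17 heat shock chaperones, most of them cytosolic, 0 were called and 13 were lower at the adjusted p alone. Hspd1, a mitochondrial chaperone that the list also held, was lower by the most (-1.16 ± 0.04 (SE), adjusted p = 4.20e-10). It shares 32.3% of its words with copies. Of 29 p53 targets 3 rose, among them Trp53inp1 (1.79 ± 0.07 (SE), adjusted p = 3.47e-10), and Cdkn1a, the inhibitor p21, was higher below the fold threshold (0.44 ± 0.05 (SE), adjusted p = 1.30e-05) while Mdm2 was lower (-0.42 ± 0.05 (SE), adjusted p = 6.46e-06). No gene was called among 22 genes of the unfolded protein response, 22 NRF2 targets or 15 mitochondrially encoded genes, whose medians were -0.02, -0.20 and -0.25. Among 29 ATF4 genes Vldlr alone rose (1.70 ± 0.13 (SE), adjusted p = 2.65e-07), at a median of 0.07.

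**Figure D3:**
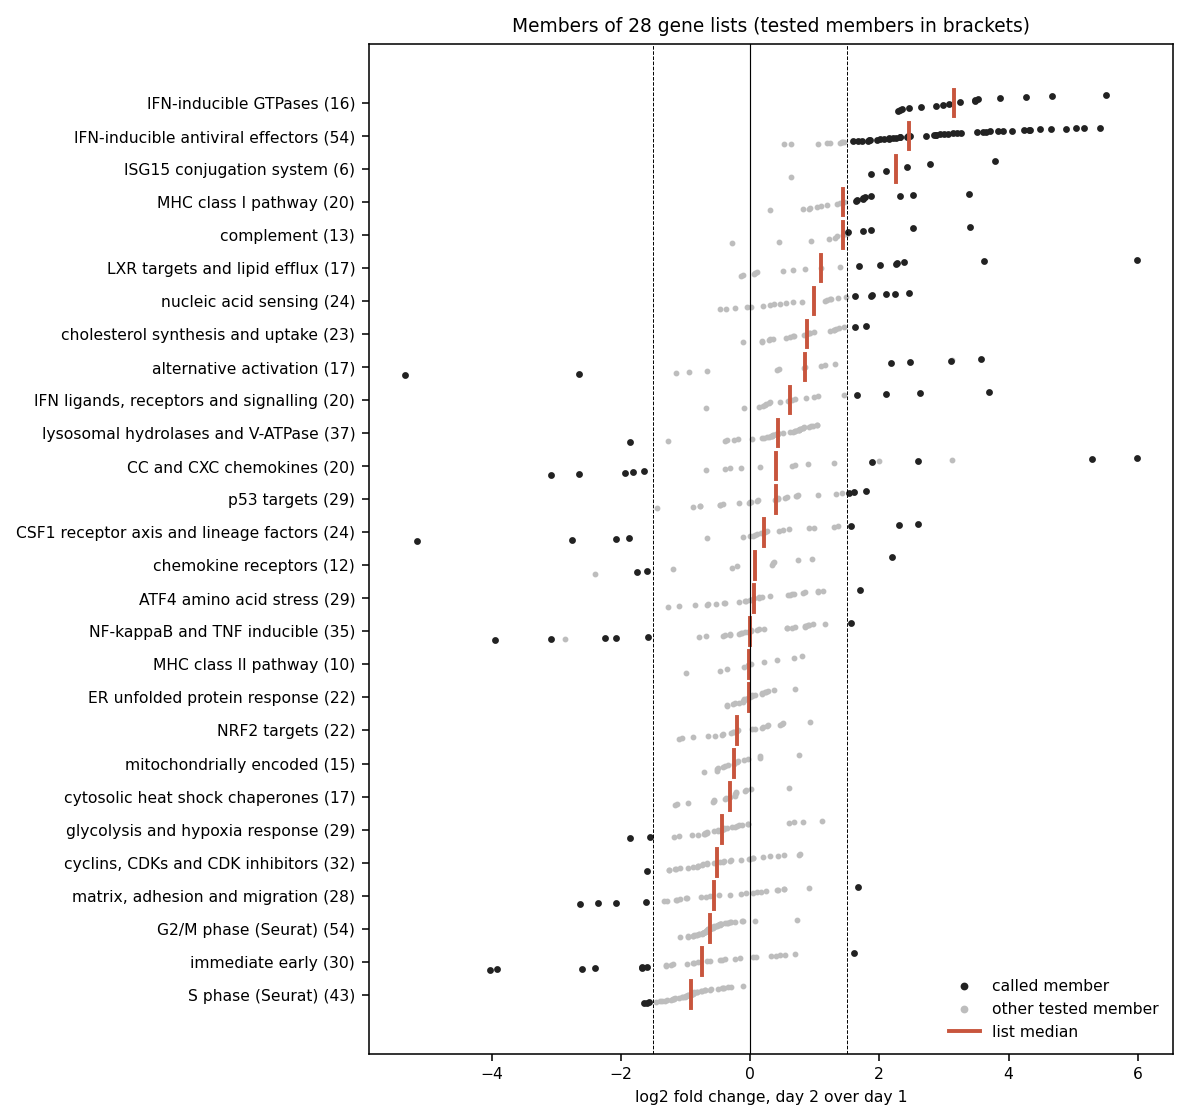
Log2 fold change (x axis, day 2 over day 1) of each tested member of 28 gene lists, 1 row per list with the number tested in brackets; dark points are called, grey points are not, bars mark medians and dashed lines the fold threshold. The IFN-inducible GTPases (median 3.16) and antiviral effectors (2.47) lie farthest to the right and the S phase genes (-0.92) farthest to the left.

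The largest rises held ISGs together with genes of other functions. Cp, ceruloplasmin, which oxidises iron for export, was at 0.324, 0.559, 0.431 and 0.576 CPM on day 1 and 39.4, 38.3, 34.8 and 33.6 CPM on day 2 (6.23 ± 0.13 (SE), adjusted p = 5.53e-12). Gpr162, an orphan receptor, was at 2.36, 1.92, 1.96 and 0.489 CPM on day 1 and 93.3, 97.6, 90.1 and 86.0 CPM on day 2; its lowest value came from the library that stood apart (5.78 ± 0.34 (SE), adjusted p = 3.10e-05). Ms4a4a, a tetraspan membrane protein on chromosome 19, was at 0.579, 0.924, 0.713 and 0.768 CPM on day 1 and 37.8, 30.5, 29.8 and 30.9 CPM on day 2 (5.40 ± 0.13 (SE), adjusted p = 1.23e-11). Ifi206, Ifi208 and Ifi213, DNA-binding proteins of the PYHIN family within 173296051 to 173525961 of chromosome 1, rose by 5.58, 5.70 and 5.42 on the log2 scale. They share 37.3%, 35.9% and 20.6% of their words with other genes, chiefly each other, and Ifi208 spread over 29.2, 22.1, 13.3 and 7.82 CPM on day 2. Iigp1c (5.86), Ms4a4c (5.17) and Ifi44 (5.05) completed the 12 rises with Scd1, Iigp1 and Ifit3.

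The largest falls held targets and regulators of other signals. Id1, an inhibitor of basic helix-loop-helix factors and a target of BMP signalling, was at 45.4, 46.7, 47.5 and 38.7 CPM on day 1 and 0.906, 0.685, 1.1 and 0.709 CPM on day 2 (-5.73 ± 0.14 (SE), adjusted p = 4.74e-11). Id3, its relative, was at 47.6, 52.6, 51.9 and 42.3 CPM on day 1 and 1.57, 0.804, 2.27 and 0.855 CPM on day 2 (-5.16 ± 0.32 (SE), adjusted p = 2.44e-05). Smad6, the inhibitor of BMP signalling that BMP itself induces, was at 16.7, 16.0, 17.7 and 10.1 CPM on day 1 and 0.962, 1.16, 1.19 and 0.709 CPM on day 2, the lowest value of day 1 coming from the library that stood apart (-3.94 ± 0.22 (SE), adjusted p = 3.19e-07). Notch4, a Notch receptor, was at 43.5, 40.4, 51.0 and 30.9 CPM on day 1 and 3.34, 3.57, 5.11 and 3.44 CPM on day 2 (-3.45 ± 0.22 (SE), adjusted p = 1.06e-05). None of the 4 overlapped between days. The other 8 of the 12 were Scin, an actin-severing protein (-4.36 ± 0.27 (SE)), Rgs16, a brake on G protein signals (-4.15 ± 0.27 (SE)), the receptors Epha2 (-4.01 ± 0.15 (SE)) and Plxna4 (-3.48 ± 0.13 (SE)), Ocstamp, Tmeff1 (-3.56 ± 0.18 (SE)), Acsbg1, an acyl-CoA synthetase (-3.43 ± 0.11 (SE)), and Tmem26 (-3.39 ± 0.11 (SE)). All 8 passed the test, with adjusted p of 9.66e-07 or below.

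The step was not shown to differ between the undeleted genotypes. In a test of the interaction of genotype and day, 0 of 14099 genes (0%) were called by edgeR, 284 had an unadjusted p below 0.05, and DESeq2 called 4. The smallest adjusted p was 0.0668, for Gm49037, whose words are all shared with Mapk6. For Trex1 the step was 1.94 in WT/FL and 1.80 in FL/FL cells on the log2 scale, and for Isg15 3.72 and 3.87. The medians over the antiviral effectors were 2.61 and 2.49. With 2 samples per genotype and day, 1 library decides much: leaving out the first FL/FL library of day 1, which leaves the library that stood apart alone in its group, gave 34 calls.

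The same step in 4-OHT-treated WT/FL cells, which keep a wild-type Trex1 allele and are separate libraries (2 per day), gave calls in the same direction. Of 15257 genes tested across all 32 libraries, 507 (3.32%) were called higher and 315 (2.06%) lower. Of the genes called higher in untreated cells 398 were also called higher there, which is 82.4% of the untreated list and 78.5% of the 4-OHT list. Of those called lower 248 were shared, 64.9% and 78.7% of the lists. No gene was called in opposite directions, and 482 of 483 rises and 379 of 382 falls had the same sign. Isg15 stepped by 4.56, Trex1 by 2.08, Scd1 by 7.03, Myc by -2.57 and Id1 by -5.96 on the log2 scale. The 4-OHT step had medians of 3.26 for the antiviral effectors, with 49 of 54 called higher, and 3.92 for the GTPases, with 16 of 17 called. On day 1 the mean of log2(CPM + 1) over the effectors was 4.05 to 4.11 in 4-OHT-treated and 4.23 to 4.37 in untreated WT/FL libraries. On day 2 it was 6.92 to 7.18 and 6.82 to 7.00, ranges that overlapped. The difference from the untreated step was above 0 for 54 of 54 effectors, which are not independent replicates, by a median of 0.46. Of these, 0 passed the test of that difference. That test called 1 of 15257 genes (0.00655%) with edgeR, with 552 at an unadjusted p below 0.05 and 4 called by DESeq2. The gene was Mex3b, an RNA-binding protein, at 7.41, 5.67, 6.18 and 5.31 CPM on day 1 and 11.8, 9.93, 10.9 and 10.8 CPM on day 2 in untreated cells. In 4-OHT-treated cells it was at 5.86 and 4.83 CPM on day 1 and 2.48 and 2.44 CPM on day 2, a difference of -1.94 ± 0.22 (SE; adjusted p = 2.13e-05). Without 1 library at a time this count ran from 1 to 5, the 5 again without the first FL/FL library of day 1.

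**Figure D4:**
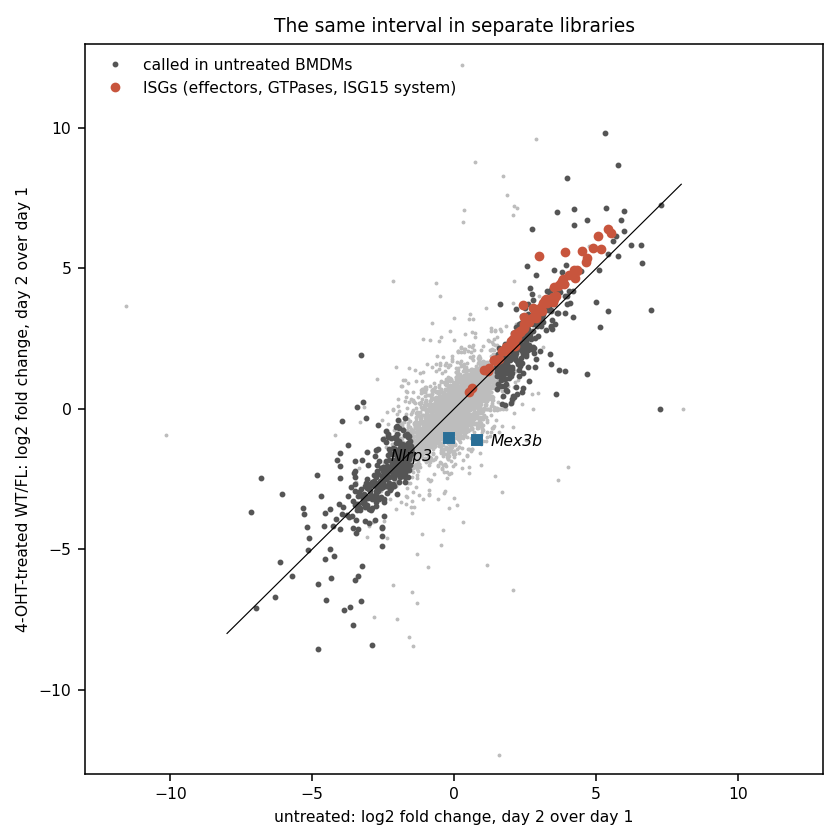
Log2 fold change from day 1 to day 2 in 4-OHT-treated WT/FL cells (y axis) against that in untreated cells (x axis), 1 point per gene tested in both; dark points are genes called in untreated cells, orange circles ISGs, and the line marks equal change. The called genes fall in the same 2 quadrants, with 482 of 483 rises and 379 of 382 falls on the same side of 0; Mex3b and Nlrp3 are labelled squares.

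The untreated cells were also harvested on days 3 and 4. The step from day 2 to day 3 shares the day 2 libraries with the first, so each step's own values are given. Between day 2 and day 3, 341 genes (2.24%) were called higher and 691 (4.53%) lower, and between day 3 and day 4, 98 (0.642%) and 87 (0.57%). The mean level of the antiviral effectors, as the mean of log2(CPM + 1), lay between 4.23 and 4.37 on day 1, 6.72 and 7.00 on day 2, 6.98 and 7.19 on day 3 and 6.09 and 6.31 on day 4. None of the effectors was called on day 3 and 4 were called lower on day 4. Trex1 had means of 115, 138 and 90.0 CPM on days 2, 3 and 4. Cholesterol synthesis genes had a median of -2.08 from day 2 to day 3, where 20 of 23 genes were called lower, and Scd1 went from a mean of 85.8 to 4.06 CPM. S phase and G2/M genes had medians of -1.92 and -3.32 from day 2 to day 3, with 28 of 43 and 43 of 54 called lower. MHC class II had 5 of 10 genes called higher on day 3 (median 1.35). Id3 had means of 1.37, 3.93 and 6.77 CPM on days 2, 3 and 4, and Id1 stayed below 2 CPM in its means.

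**Figure D5:**
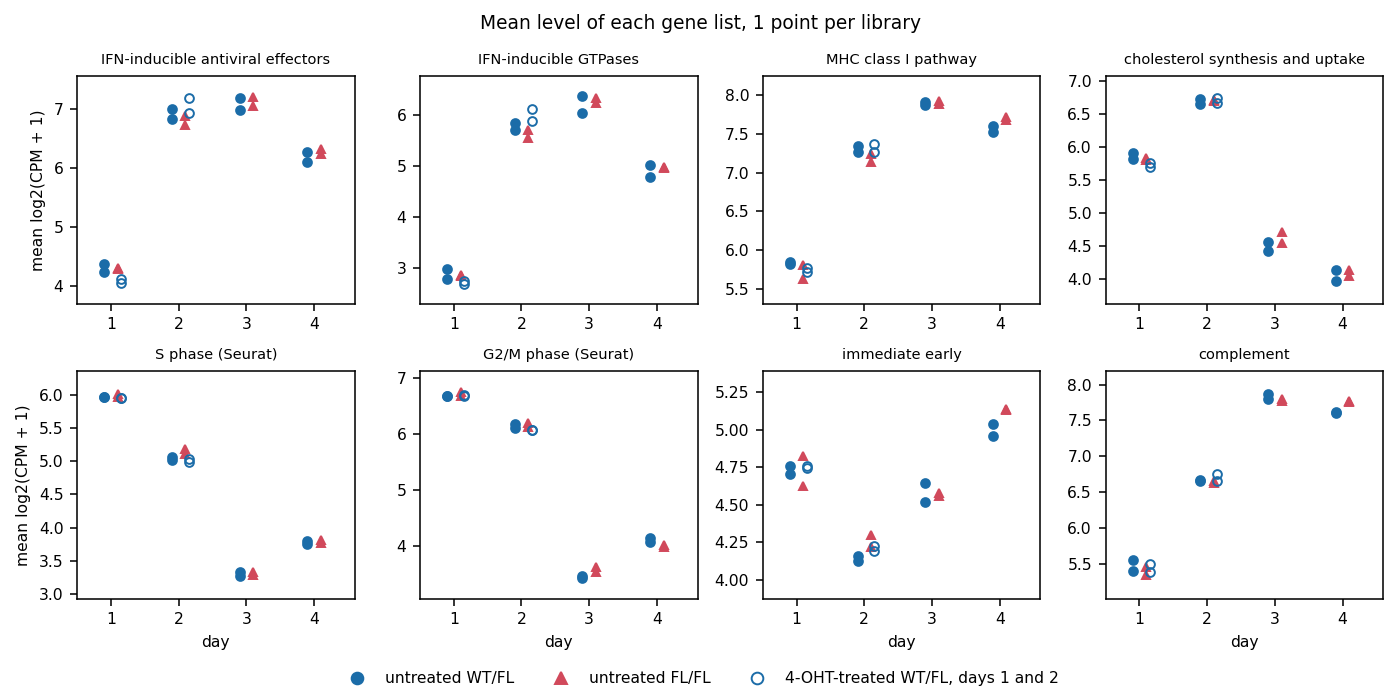
Mean of log2(CPM + 1) over the tested members of selected lists (y axis) by day (x axis), 1 filled point per untreated library (circles WT/FL, triangles FL/FL) and 1 open circle per 4-OHT-treated WT/FL library on days 1 and 2. Antiviral effectors lie between 4.23 and 4.37 on day 1 and between 6.72 and 7.00 on day 2 in untreated cells; cholesterol genes are highest on day 2 and S phase genes lowest on day 3.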

How the data were processed

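RNA-seq was available for 32 libraries, of which 8 entered the comparison. The deposited values are estimated counts, which the authors obtained from Salmon transcript abundances by way of tximport with GRCm39 as the reference; the submitters' processing notes also list FastQC 11.9 and DESeq2 1.32, and per the paper's methods reads were demultiplexed with JE. The deposited table holds whole numbers without normalization for 54281 identifiers, and a correction for transcript length was not used here. Names were taken from GENCODE vM39 (51048 identifiers matched; the others held 0.320% of counts).

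Genes with too few counts were removed (filterByExpr, minimum count 10), libraries were scaled by TMM and 14099 genes were fitted with edgeR 4.0.16 (R 4.3.3; robust quasi-likelihood test, genotype and day as terms, 5 residual degrees of freedom). P-values were adjusted after Benjamini and Hochberg over all genes tested; a gene was called where the adjusted p was below 0.01 and the log2 fold change lay beyond 1.5 in either direction. CPM used the TMM factors of all 32 libraries. The fit to 4-OHT-treated cells and later days used 16 group means (15257 genes). Alternatives were DESeq2 1.42.0, other scalings, filters, thresholds and leaving out each library. Scripts were tested on simulated counts. S and G2/M phase lists came from Seurat 5.3.0 in mouse letter case. Promoters came from RefSeq (GRCm38.p6). Shared words are 31-base stretches of a gene's transcripts that also occur in transcripts of other genes.

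The comparison, the 28 function lists and the 11 marker lists were chosen with earlier results of these data known. Named genes were Trex1, the 12 largest rises and falls among called genes with a proper symbol, a mean of at least 5 CPM on the higher day and no overlap between days, and up to 4 called members per list (the 2 largest rises and falls, or the 2 smallest p where none was called); members that define a role were added after their values were seen. The authors' own comparisons were not used. Depth ranged from 37068763 to 54237100 counts in the 8 libraries, at which a count of 0 allows up to 3 counts; such limits cover counting error only. Replicates of 1 group differed by more than sampling noise (chi-square per degree of freedom 13.5 to 51.5). The labels do not say that samples of different days share an animal or culture, but sample titles run consecutively over the days in 4 series. Deviations of same-series samples correlated at 0.19 in WT/FL and 0.25 in FL/FL cells across 14099 genes (with 2 samples per group, 1 value per genotype), and a block on the series was an alternative. Some genes are not reported here.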

Additional observations from a re-analysis of the deposited data

Results flagged for a closer look

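In each group of 4 samples the highest and lowest values were compared with the rest of their group (Dixon's criterion). Of 188 gene groups, 66 list groups and 2 groups of totals, 22 held a sample that stood out, and chance gives about 1 in 20. The second FL/FL library of day 1 gave 4 of them: Irf3 at 22.9 CPM, below 31.7 to 33.1 CPM in the others, and the means of log2(CPM + 1) of the MHC class I pathway (5.62, lowest), S phase (6.02, highest) and G2/M genes (6.75, highest). On day 1 the first WT/FL library was highest for Iigp1 (1.74 CPM), Ms4a4c (1.99 CPM), Ifi44 (1.69 CPM) and Prtn3 (1.25 CPM), 3 of which are ISGs at low levels. The second WT/FL library of day 1 was lowest for Trex1 (28.6 CPM, against 31.6 to 32.0 CPM) and highest for Ifnar2 (78.3 CPM). The first FL/FL library of day 1 was highest for Ifi206 (1.33 CPM) and for the osteoclast markers (mean log2 level 5.25). On day 2 the first WT/FL library was highest for Ms4a4a (37.8 CPM), H2-DMa (22.4 CPM), Thbs1 (21.5 CPM) and Irf9 (96.3 CPM). The first FL/FL library of day 2 was highest for Notch4 (5.11 CPM), Hsph1 (51.5 CPM), Cd34 (2.47 CPM) and Cgas (28.3 CPM) and lowest for Ccrl2 (5.04 CPM). The mitochondrially encoded genes were highest in the second FL/FL library of day 2 (mean log2 level 9.83). Among these 17 genes the days overlapped for Prtn3 alone.

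The step from day 1 to day 2 differed between 4-OHT-treated WT/FL and untreated cells for 2 genes at an adjusted p below 0.01 in edgeR. Mex3b differed by -1.94 on the log2 scale and Nlrp3, the inflammasome sensor, by -0.87 (SE 0.10; adjusted p = 2.13e-05 for each). In untreated cells Nlrp3 went from 94.0, 97.7, 87.2 and 97.1 CPM on day 1 to 79.6, 90.0, 82.9 and 84.8 CPM on day 2. In 4-OHT-treated cells it started from 73.6 and 79.2 CPM and reached 35.5 and 39.5 CPM. Both 4-OHT values of each day lay below the 4 untreated values.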

How the results depend on the processing

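Of the results for single genes, 1901 values under an alternative kept their direction and side of the threshold, 41 became weaker, 7 stronger and 3 reversed; of list medians 494 moved by less than the spread between replicates, 158 by more and 11 reversed. The genes called higher and lower numbered 3157 and 3554 with no minimum fold change, 969 and 930 at an adjusted p below 0.05 and a log2 change above 1, and 218 and 110 when a change above 1.5 was itself tested (glmTreat). The other scalings, DESeq2, other filters, the fit to 32 samples and the step of either genotype gave 380 to 582 higher and 263 to 449 lower. The steps of WT/FL and FL/FL cells were read from 1 interaction fit to all 8 libraries, so filter, scaling and dispersion were shared. Leaving out 1 library gave 442 to 492 higher, 329 to 378 lower, 0 to 34 genes that differed between genotypes (34 without the first FL/FL library of day 1, 2 without the second and 1 without the first of day 2) and 1 to 5 that differed after 4-OHT; leaving out the 4-OHT-treated libraries, and the list counts without the second FL/FL library of day 1, were alternatives chosen after seeing the data. Genes that differed between genotypes numbered 4 with DESeq2 and 8 without a filter; those that differed after 4-OHT numbered 4 with DESeq2, 29 without a filter, 2 with no minimum fold change and 3 at the looser threshold. Atrip reversed to -0.0091 with upper-quartile factors, -0.055 with library totals and -0.0039 for the WT/FL step. Library totals moved the median of all genes to -0.093 and turned the medians of ATF4 genes (-0.0090) and chemokine receptors (-0.0032). Chemokine receptors also turned for the FL/FL step (-0.0097) and without the first WT/FL library of day 2 (-0.024, where leaving out 1 library gave -0.024 to 0.119). Chemokines turned with a minimum count of 50 (-0.15). Dendritic cell markers turned with DESeq2 (0.071) and without a filter (0.23). The unfolded protein response turned in the fit to 32 samples (0.0016) and without the second WT/FL (0.0063) or second FL/FL library of day 1 (0.035), and endothelial markers without the second FL/FL library of day 2 (0.071; range -0.531 to 0.071). The cause of these changes was not tested. Only part of the genes named here were followed under the alternatives. Adgre1, Tnf, Fosl2 and Mmp12, for example, were not. Among those followed, Csf1, Ccr1, Ccne2, Thbs1, Fn1, Kit, Prtn3, Il34, Pdcd1lg2 and Il1a lost their call under some alternative, and Pdgfrb gained one. With 2 libraries per genotype and day, genes near the count filter and differences between genotypes are limited by single libraries. A replicate block on the 4 series of consecutive sample titles, also chosen after seeing the data, gave 471 genes higher and 372 lower. Of the genes followed under the alternatives, the block changed the call of Pdgfrb alone (2.38, adjusted p = 0.00897 in edgeR).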

Other observations

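The lists in this section were chosen after their values were seen, so their counts are descriptions and carry no test of the list. Genes for making ribosomes, polyamines and nucleotides, many of them known targets of MYC, were lower in 24 of 24 tested members at the adjusted p alone, of which 7 fell (2.71% of all genes fell), with a median log2 fold change of -1.30. Dkc1, which modifies ribosomal RNA, was at 54.5, 58.4, 54.8 and 63.4 CPM on day 1 and 11.2, 12.4, 12.7 and 13.5 CPM on day 2 (-2.24 ± 0.07 (SE), adjusted p = 5.32e-11). Odc1, the rate-limiting enzyme of polyamine synthesis, was at 171, 179, 175 and 191 CPM on day 1 and 41.5, 40.0, 51.0 and 46.0 CPM on day 2 (-2.03 ± 0.06 (SE), adjusted p = 4.26e-11). Ctps1, which makes CTP, was at 34.8, 37.4, 34.2 and 36.3 CPM on day 1 and 8.3, 8.49, 9.38 and 8.87 CPM on day 2 (-2.05 ± 0.07 (SE), adjusted p = 1.17e-10). The days did not overlap in any of the 3, and Npm1, an abundant nucleolar protein, went from 551, 553, 560.1 and 635 to 358, 369, 354 and 356 CPM (-0.70 ± 0.05 (SE), adjusted p = 6.61e-08).

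Genes of iron handling were mixed: of 11 tested 3 rose, 0 fell, 7 were higher and 3 lower at the adjusted p alone. The 3 act in export or binding of iron outside the cell. Slc40a1, ferroportin, the exporter of iron, was at 6.65, 7.98, 8.37 and 7.25 CPM on day 1 and 52.2, 70.1, 50.9 and 59.3 CPM on day 2 (2.91 ± 0.12 (SE), adjusted p = 3.68e-08). Trf, transferrin, was at 19.0, 20.5, 19.9 and 19.9 CPM on day 1 and 83.5, 90.0, 76.3 and 80.6 CPM on day 2 (2.04 ± 0.06 (SE), adjusted p = 3.02e-11), and Cp is given above. Tfrc, the receptor for uptake of transferrin, was at 244, 224, 255.9 and 257 CPM on day 1 and 225, 215, 222 and 228 CPM on day 2, a step of -0.16 ± 0.04 (SE). In the Ms4a family of tetraspan membrane proteins, 8 of 21 genes were tested, 7 rose and 0 fell, with a median of 2.48; Ms4a6b was at 36.4, 36.6, 30.7 and 32.2 CPM on day 1 and 314, 261, 237 and 274 CPM on day 2 (2.98 ± 0.07 (SE), adjusted p = 1.23e-11).

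Genes inducible by BMP and TGF-beta were lower beyond Id1, Id3 and Smad6: of 14 tested 0 rose and 8 fell, with a median of -1.77. Smad9, among the 8, was near the limit of detection. It was at 0.301, 0.073, 0.149 and 0.279 CPM on day 1 and 0 CPM in every library of day 2. Pmepa1, an inhibitor induced by TGF-beta, was at 41.9, 40.5, 48.3 and 41.5 CPM on day 1 and 4.66, 4.49, 5.09 and 5.28 CPM on day 2 (-3.16 ± 0.07 (SE), adjusted p = 1.19e-11). Smad7, another inhibitor that the pathway induces, was at 14.8, 14.0, 14.5 and 10.8 CPM on day 1 and 5.02, 3.78, 4.18 and 4.3 CPM on day 2 (-1.66 ± 0.12 (SE), adjusted p = 1.11e-07). Of 8 receptors of the pathway 0 were called, 4 were higher and 3 lower at the adjusted p alone. Tgfbr2, a receptor for TGF-beta, was at 99.3, 104, 101 and 97.3 CPM on day 1 and 188, 187, 172 and 168 CPM on day 2 (0.81 ± 0.04 (SE), adjusted p = 8.59e-09), and Acvr1, a receptor for BMPs, at 40.8, 41.1, 41.5 and 44.3 CPM on day 1 and 24.3, 23.8, 22.9 and 23.8 CPM on day 2 (-0.84 ± 0.05 (SE), adjusted p = 3.35e-08). In the Notch pathway 3 of 6 tested genes fell: Notch4, given above, Jag1 and Hes1. Hes1 was near the limit of detection, at 0.0927, 0.243, 0.215 and 0.262 CPM on day 1 and 0.0566, 0, 0.022 and 0 CPM on day 2. Jag1, a ligand, was at 34.1, 36.8, 32.0 and 36.5 CPM on day 1 and 6.00, 7.73, 9.03 and 8.37 CPM on day 2 (-2.19 ± 0.11 (SE), adjusted p = 1.19e-08). Notch2, a receptor, was at 190.1, 163, 168 and 173 CPM on day 1 and 260.5, 259.6, 272 and 245 CPM on day 2, higher at the adjusted p alone (0.56 ± 0.05 (SE), adjusted p = 1.56e-06).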
